A study of Homo sapiens with 2 samples.

Results

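The lncRNA genes described here were chosen by the deposited list of R-loop regions that differed between shA3B and shCtrl cells. A gene was a member when any of its annotated transcription start sites (TSSs) lay within 3 kb of the midpoint of a listed region, with genes and TSSs taken from GENCODE release 44 on GRCh38. Of 18753 lncRNA genes on chromosomes 1 to 22 and X, 188 met the rule, which is 1.00% (95% Wilson interval 0.870 to 1.16). NEAT1, MALAT1 and LINC00324 were left out by name. The same rule applied to protein-coding genes gave 438 of 19970, or 2.19% (2.0 to 2.41). The members' nearest regions were 169 different regions of the 562 on the list, since neighbouring genes can share one.

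The cells were OMM2.3, a uveal melanoma line, and the assay was R-loop CUT&Tag, which cuts and tags DNA beside an antibody. The 2 groups were shCtrl, with a control hairpin, and shA3B, in which APOBEC3B (A3B) was knocked down, with 1 library each. Both carried the same transfected RNASEH1, V5-tagged and with D210N, which still binds RNA:DNA hybrids but cannot cut them, and the antibody was against V5 in both. Which A3B hairpin these cells carried is not given in the sources used here. The list gives only the position of each region, without read counts, folds or directions. A region was therefore one that the authors listed as differing, and it was not known from the list in which library it was higher. There was no replicate check, the read depth is unknown from the list, and the list holds no expression values against which the cell line or the activity of a gene could be checked.

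An R-loop forms when nascent RNA pairs with its DNA template behind RNA polymerase and leaves the other DNA strand single. Promoters in CpG islands are known sites of R-loops, and many of them are transcribed in both directions, with a coding gene on one side and a lncRNA on the other. A lncRNA that starts head to head with a coding gene is called divergent, and its symbol often ends in -DT. A lncRNA whose gene overlaps a coding gene on the opposite strand is called antisense, with symbols such as CD63-AS1.

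The promoters below show the kinds of start site that carried a region. They are written 5′ to 3′ on the strand of the lncRNA (GRCh38), in lower case, with matches to searched promoter motifs in capitals, on either strand. The GC box, bound by SP1, was searched as GGGCGG. The letters of the CCAAT box, bound by NF-Y, were searched as such. The TATA box was searched as TATAAA. The ETS motif was searched as CCGGAAG. SAMMSON, LINC00240 and LINC00511 are shown from 250 bases before to 50 bases after the TSS nearest to the region midpoint. For TP53TG1, HSPA5-DT and POLG-DT, the stretch between the lncRNA TSS and the coding TSS is shown.
SAMMSON, chr3:69999596-69999895, plus strand: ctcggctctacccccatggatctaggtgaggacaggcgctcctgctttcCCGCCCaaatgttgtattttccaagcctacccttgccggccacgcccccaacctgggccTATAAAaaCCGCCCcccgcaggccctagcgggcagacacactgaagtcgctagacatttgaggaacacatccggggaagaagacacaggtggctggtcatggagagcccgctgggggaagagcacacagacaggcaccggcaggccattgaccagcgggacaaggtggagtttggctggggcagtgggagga
LINC00240, chr6:27020075-27020374, plus strand: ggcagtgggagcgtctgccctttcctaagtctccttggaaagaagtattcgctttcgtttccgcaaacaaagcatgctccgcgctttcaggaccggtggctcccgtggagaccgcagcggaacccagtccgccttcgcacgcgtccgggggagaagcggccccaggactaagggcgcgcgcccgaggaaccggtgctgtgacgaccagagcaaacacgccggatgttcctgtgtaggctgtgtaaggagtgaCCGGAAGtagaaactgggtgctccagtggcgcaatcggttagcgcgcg
LINC00511, chr17:72592387-72592686, minus strand: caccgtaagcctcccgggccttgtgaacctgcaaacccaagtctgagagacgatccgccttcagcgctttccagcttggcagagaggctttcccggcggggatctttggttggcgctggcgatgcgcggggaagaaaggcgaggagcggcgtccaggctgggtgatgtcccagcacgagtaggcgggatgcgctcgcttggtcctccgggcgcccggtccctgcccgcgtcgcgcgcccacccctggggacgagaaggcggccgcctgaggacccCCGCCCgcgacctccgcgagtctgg
TP53TG1 to CROT, chr7:87345528-87345663, minus strand: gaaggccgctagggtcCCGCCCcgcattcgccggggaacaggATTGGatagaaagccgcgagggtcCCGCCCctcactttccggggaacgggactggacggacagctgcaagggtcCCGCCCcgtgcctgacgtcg
HSPA5-DT to HSPA5, chr9:125241383-125241662, plus strand: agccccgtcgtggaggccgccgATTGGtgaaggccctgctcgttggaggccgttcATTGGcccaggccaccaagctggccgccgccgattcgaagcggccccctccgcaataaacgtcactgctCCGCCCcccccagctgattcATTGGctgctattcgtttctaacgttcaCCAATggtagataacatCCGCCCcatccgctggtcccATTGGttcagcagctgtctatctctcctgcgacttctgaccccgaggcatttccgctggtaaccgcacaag
POLG-DT to POLG, chr15:89334862-89335052, plus strand: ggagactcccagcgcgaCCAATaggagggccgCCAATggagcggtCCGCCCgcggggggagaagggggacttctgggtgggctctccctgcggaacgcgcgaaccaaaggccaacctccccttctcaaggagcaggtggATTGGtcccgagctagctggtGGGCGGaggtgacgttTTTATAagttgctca

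The SAMMSON window had 61.3% GC with a CpG observed/expected ratio of 0.461 and held a TATA box between GC boxes. The LINC00240 window had no GC box and ran into a tRNA gene, TRI-TAT2-2. In the 280 bases between HSPA5-DT and HSPA5, CCAAT motifs occurred on both strands. The 136 bases between TP53TG1 and CROT were 69.1% GC, with GC boxes and a CCAAT motif. A motif match is a description of the letters and not a mapped binding site.

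The share of lncRNA genes with a region differed with their position beside coding genes. Of 1300 divergent lncRNA genes, 47 had a region, or 3.62% (2.73 to 4.77). Of 6980 antisense lncRNA genes, 83 had one, or 1.19% (0.960 to 1.47). Of 10473 lncRNA genes standing alone, 58 had one, or 0.554% (0.429 to 0.715). The divergent share was 6.53 times the standing-alone share, and none of these 3 intervals overlapped. Within the antisense class the share also differed with the orientation of the starts. Of 2534 antisense genes that also started head to head with a coding TSS, 56 had a region (2.21%, 1.71 to 2.86), against 27 of the 4446 others (0.607%, 0.418 to 0.882).

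The classes also differ in promoter sequence. A promoter was called CpG-rich when its 300 bases had at least 55% GC and a CpG observed/expected ratio of at least 0.6. By this rule 69.3% of all divergent lncRNA genes, 24.3% of antisense genes and 10.1% of standing-alone genes had a CpG-rich promoter at the canonical TSS. Among CpG-rich promoters the shares with a region were 3.88% for divergent (2.81 to 5.35), 3.30% for antisense (2.55 to 4.26) and 2.65% for standing-alone genes (1.84 to 3.80). These 3 intervals overlapped. Among the other promoters the shares were 3.01% (1.73 to 5.18), 0.511% (0.352 to 0.743) and 0.319% (0.223 to 0.454). The divergent share was the highest there and its interval overlapped neither of the others, but only 12 divergent members had such a promoter. Promoters were scored at the lncRNA TSS, while the region can lie at the coding TSS of the pair. At EIF5-DT and ENSG00000274414 the midpoint was 2081 and 2785 bp from the lncRNA TSS but 56 and 71 bp from a coding TSS. At ENSG00000270103 and ENSG00000266824 it was 181 and 206 bp from the lncRNA TSS. This share is therefore not one of regions at the lncRNA starts themselves.

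**Figure D1:**
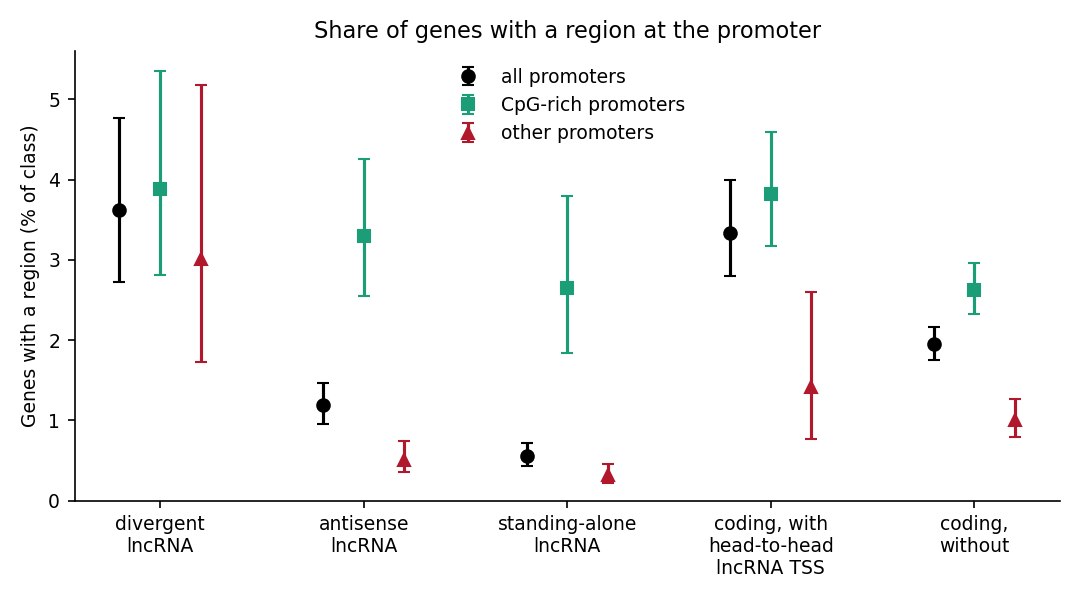
Share of genes with a region within 3 kb of a TSS (y axis, % of the class) for 3 classes of lncRNA genes and 2 classes of protein-coding genes (x axis). Points are shares over all promoters (black), CpG-rich promoters (green) and other promoters (red), with 95% Wilson intervals. Over all promoters the lncRNA classes run from 3.62% to 0.554%, and among CpG-rich promoters from 3.88% to 2.65%.

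Seen from the coding side, coding genes were split by whether they were the nearest head-to-head coding partner of a lncRNA gene. Of 3530 that were, 118 had a region (3.34%, 2.80 to 3.99), against 320 of the 16440 others (1.95%, 1.75 to 2.17). A coding gene whose head-to-head lncRNA had a nearer coding partner counted among the others. Among CpG-rich promoters the shares were 3.82% (3.17 to 4.59) and 2.62% (2.32 to 2.96), and these intervals did not overlap either. Among the other promoters they were 1.42% (0.774 to 2.6, 10 genes) and 1.0% (0.794 to 1.27), and these intervals overlapped. Genes at one region were not independent of each other, so the intervals are narrower than they would be over independent promoters.

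Of the 188 members, 47 were divergent (25%), 83 antisense (44.1%) and 58 stood alone (30.9%). Most divergent and antisense members shared their region with a coding TSS. In all, 133 members (70.7%, 63.9 to 76.8) had a coding TSS within 3 kb of the same midpoint. This held for 47 of 47 divergent members, a count that the class definition nearly fixes, for 76 of 83 antisense members and for 10 of 58 standing-alone members. Conversely, 23 members had the only GENCODE gene start at their region, and 22 of these stood alone. The region of 9 of these 22 overlapped a tRNA gene, which this count leaves out.

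The distance from the midpoint is the value that chose the members, with the nearest of a gene's TSSs taken, so it is given as a description. The median distance from the midpoint to the nearest member TSS was 295.5 bp (95% interval from ranks 241 to 393). It was 236 bp for divergent, 276 bp for antisense and 355 bp for standing-alone members. The TSS lay inside the region in 130 members (69.1%), within 100 bp of the midpoint in 39 and between 1 and 3 kb away in 31. The regions had a median width of 1125 bp (1041 to 1223) and ranged from 215 to 4872 bp.

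At the edge of the rule, the members farthest from a midpoint were LINC02574 (2716 bp), ENSG00000274414 (2785 bp) and LINC01385 (2810 bp). The nearest genes outside it were ENSG00000233060 (3036 bp), ENSG00000287252 (3179 bp) and ENSG00000274507 (3290 bp). A further 3 kb out would have added 26 genes.

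The side of the start on which the region lay differed by class. Divergent members had the midpoint upstream of their TSS, towards the coding gene, with a median of -181 bp (-393 to -68), and in 12 of 47 it was downstream. Antisense members that did not start head to head had it downstream, at a median of 496 bp (160 to 841), with 23 of 27 downstream. Standing-alone members had the midpoint on either side of the start, with a median of 17.5 bp (-196 to 152) and 30 of 58 downstream. Beside a head-to-head lncRNA the coding TSS lies upstream by construction, so an upstream offset is also an offset towards the coding start. The antisense class does not fix where the coding TSS lies, and 6 antisense members had no opposite coding TSS within 3 kb.

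**Figure D2:**
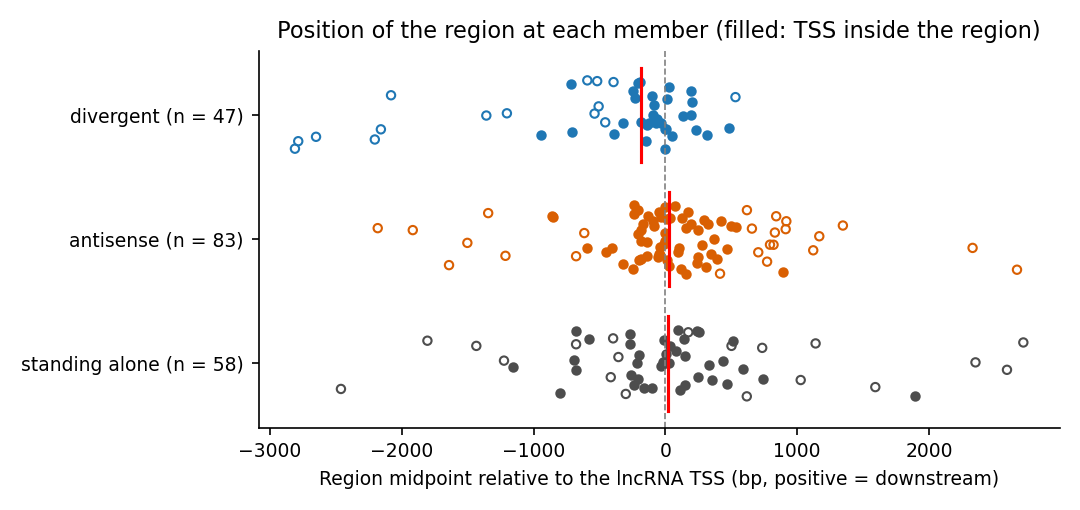
Position of the region midpoint relative to the lncRNA TSS (x axis, bp, positive is downstream) for each of the 188 members, by class (y axis, with random vertical scatter). Filled points have the TSS inside the region, open points do not, and red bars are medians. The divergent median lies at -181 bp and the standing-alone median at 17.5 bp.

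For 100 members, the lncRNA TSS and a head-to-head coding TSS both lay within 3 kb of the midpoint. Their starts were close together, with a median of 173 bp between them (133 to 216), and 72 pairs were within 300 bp. The region covered both starts in 65 pairs (65.0%, 55.3 to 73.6), the coding start alone in 14, the lncRNA start alone in 10 and neither in 11. It was centred nearer to the lncRNA TSS in 46 pairs and nearer to the coding TSS in 54. It reached a median of 414 bp into the lncRNA side (275 to 502) and 507.5 bp into the coding side (402 to 585). The median difference within a pair was -38 bp (lncRNA minus coding, -232 to 70), an interval that included 0. At 131 regions shared by a lncRNA and a coding TSS in any orientation, counting every TSS of each gene, the midpoint was nearer to a lncRNA TSS in 40 (30.5%, 23.3 to 38.9) and nearer to a coding TSS in 91.

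**Figure D3:**
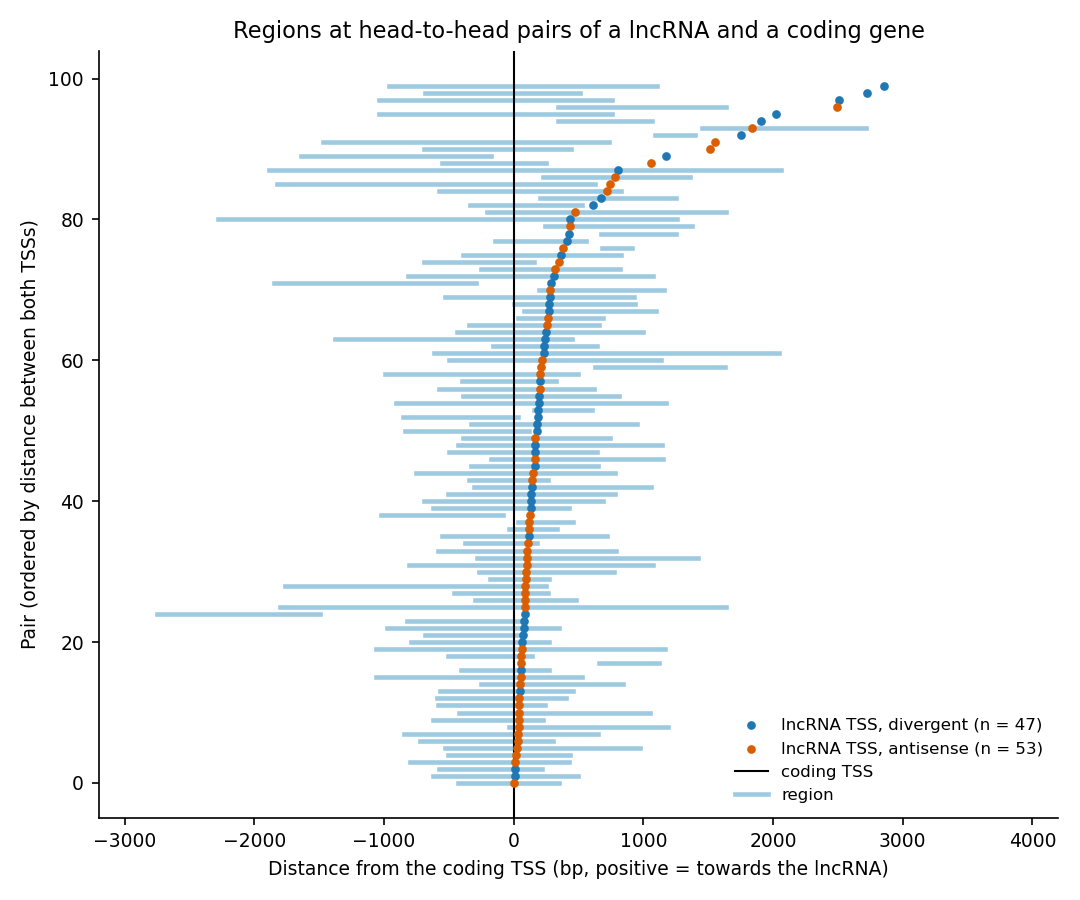
Regions (light blue bars) at the 100 head-to-head pairs, drawn relative to the coding TSS (x axis, bp, positive towards the lncRNA) and ordered by the distance between both starts (y axis). Points are the lncRNA TSSs of divergent (blue) and antisense (orange) members. Most pairs start within 300 bp of each other, and the region covers both starts in 65 pairs.

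Widest among the divergent members with an approved (HGNC) symbol was CPEB2-DT, head to head with CPEB2, an RNA-binding regulator of translation. Its region spanned 3546 bp (chr4:15001218-15004763) and covered 828 bp of the lncRNA side and 2283 bp of the coding side. POLG-DT lies opposite POLG, the catalytic subunit of the mitochondrial DNA polymerase. Its region of 2085 bp (chr15:89333950-89336034) was nearly even, with 982 bp on the lncRNA side and 912 bp on the coding side, and also held a tRNA gene. The region of USP27X-DT (1826 bp) leaned to USP27X, a deubiquitinase gene, with 1376 bp against 208 bp. The region of ITPR1-DT (1573 bp) leaned the other way, with 980 bp on the lncRNA side and 428 bp on the side of ITPR1, a calcium channel of the endoplasmic reticulum.

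HSPA5-DT starts 281 bp from HSPA5, the endoplasmic reticulum chaperone BiP. Its region of 1456 bp (chr9:125240852-125242307) covered the stretch printed above and reached 645 bp into HSPA5-DT and 531 bp into HSPA5. The region at SLC20A1-DT (1433 bp) covered the lncRNA start, 30 bp from its midpoint, and that of SLC20A1, a phosphate transporter gene. At EIF5-DT (1467 bp) and LINC01770 (1559 bp) the region missed the lncRNA start altogether. Its midpoint lay 2081 bp upstream of EIF5-DT, at the translation initiation factor gene EIF5, and 1358 bp upstream of LINC01770, at VWA1. These 2 members met the rule through a region on the coding gene's side.

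The widest region at a named antisense member lay at CD63-AS1 and CD63, which encodes a tetraspanin of endosomes and melanosomes. It spanned 3437 bp (chr12:55727210-55730646) around starts 85 bp apart, with 1553 bp on the lncRNA side and 1800 bp on the coding side. AGBL5-AS1 (2451 bp) had its start outside the region, which held 2 tRNA genes and had its midpoint 1344 bp upstream, on the side of AGBL5. DLGAP4-AS1 (1877 bp) is antisense to DLGAP4 and MYL9 but starts head to head with TGIF2, and its TSS was 32 bp from the midpoint. MYOSLID, known as a regulator of smooth muscle differentiation, starts 102 bp from KLF7. Its region of 1708 bp reached 1321 bp into MYOSLID and 286 bp into KLF7. MEF2C-AS2 (1858 bp) had no coding TSS at its region, and the midpoint lay 856 bp upstream of its start.

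SAMMSON, a lncRNA on which melanoma cells are known to depend, was the 1 member of the 6 annotated genes on a list of lncRNAs known from melanoma (16.7%, 3.01 to 56.4). A list of 6 genes is too short to set against the 1.00% of all lncRNA genes. The SAMMSON region spanned 872 bp (chr3:69999483-70000354), with the TSS inside it and 73 bp from the midpoint. The gene counted as antisense because its span of 518515 bp overlaps MDFIC2, but no TSS of another gene lay at the region. TP53TG1, a p53-induced lncRNA, was the 1 member of 29 annotated genes known for nuclear, chromatin or R-loop roles (3.45%, 0.611 to 17.2), an interval that includes the 1.00% of all lncRNA genes. Its TSS was 1 bp from the midpoint of a 1289 bp region (chr7:87344884-87346172), and the paired start of CROT, a peroxisomal carnitine acyltransferase gene, was 137 bp from it. The region reached 644 bp into TP53TG1 and 509 bp into CROT.

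Of 73 annotated miRNA host genes, 2 were members (2.74%, 0.755 to 9.45). MIR3142HG carries MIR146A, whose product represses inflammatory signalling and reads as follows, with the seed in capitals.
hsa-miR-146a-5p, chr5:160485372-160485393 (GRCh38), plus strand: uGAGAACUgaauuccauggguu
The region at MIR3142HG (1462 bp) was centred 582 bp upstream of its TSS and had no TSS of another gene. MIR3677HG starts 29 bp from RNPS1, an RNA-processing gene, and its 1504 bp region covered both starts. Counted by position, 6 members contained 8 annotated miRNA genes on their own strand, among them MIR9-2 in LINC00461. By position, 2 members also contained a small nucleolar RNA gene, ENSG00000213963 and ENSG00000262202. How many of all lncRNA genes contain a miRNA or small nucleolar RNA gene is not given here, so these counts by position have no background. Of 34 genes known to host small nucleolar RNAs, 0 were members, which allows a share of up to 10.2% by the Wilson interval. The background over all lncRNA genes was 1.00%, so 0 of 34 was no departure that this list could show.

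Among the standing-alone members, 48 had no coding TSS at the region. Of these, 26 had the start of another gene there and 17 a tRNA or other small RNA gene. LINC00240 and LARRPM start 15 bp apart, head to head, and lie 4 and 11 bp from the midpoint of 1 region of 1083 bp (chr6:27019780-27020862). LINC00426 lay 30 bp from the midpoint of a 422 bp region, the only annotated start there. LINC00511, a lncRNA studied in several cancers, was also the only start at its region of 685 bp (chr17:72592198-72592882), 104 bp from the midpoint. LINC01962 and TRIM7-AS2 start 4 bp apart and shared a region of 1298 bp. GHET1 was 145 bp from a midpoint, LINC02739 was 150 bp away and LINC02453 was 241 bp away.

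**Figure D4:**
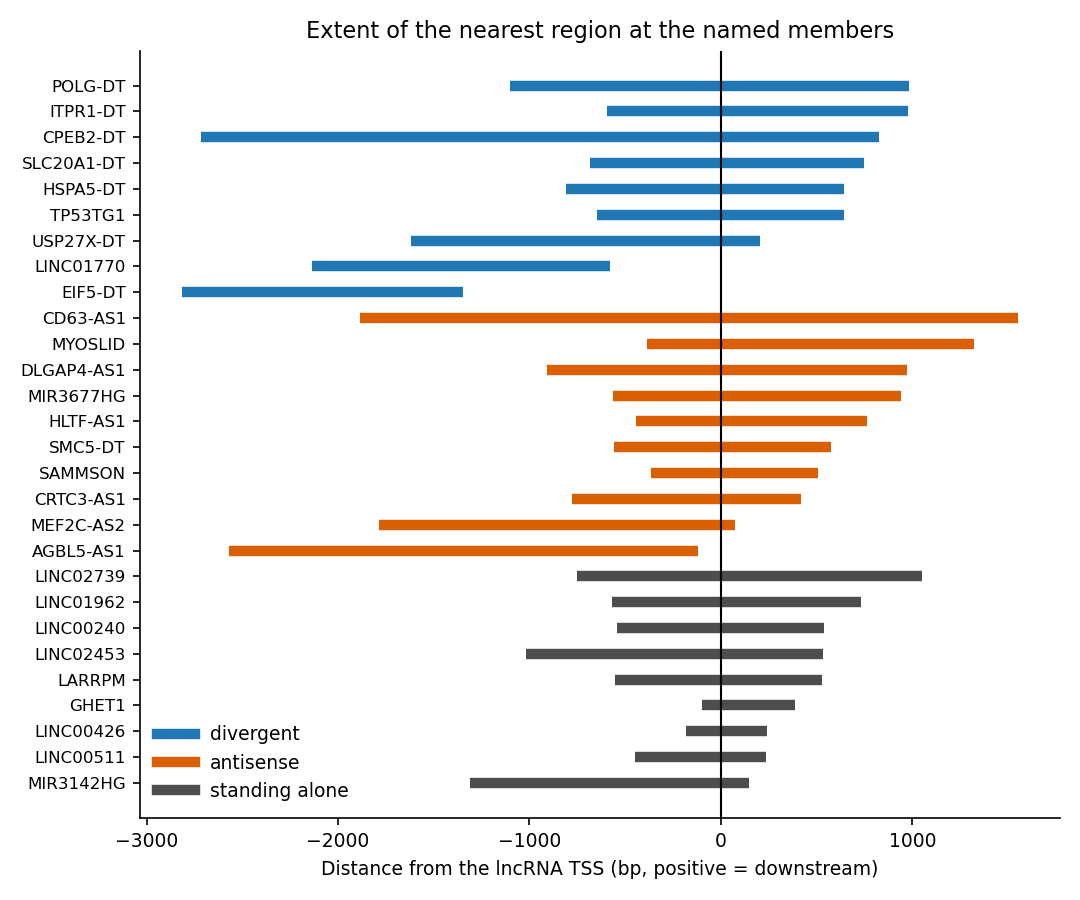
Extent of the nearest region at 28 named members relative to the lncRNA TSS (x axis, bp, positive is downstream), coloured by class. The black line is the TSS. Regions cover the start in most of these genes, and those of EIF5-DT, LINC01770 and AGBL5-AS1 lie wholly upstream.

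Small RNA genes lay at some of the standing-alone members. Of the 58, 13 had a region that overlapped a tRNA gene and 5 another small RNA gene, 18 in all. Over the 188 members the count was 30, of which 21 overlapped a tRNA gene and 9 another small RNA gene. The share of all listed regions that overlap such a gene is not given here. These counts therefore do not set the members apart from the rest of the list. Of the named standing-alone genes, LINC00240, LARRPM, LINC01962, LINC02739 and LINC02453 were among them, and LINC02453 had 2 tRNA genes in its region. At these genes the list cannot tell apart an R-loop of the lncRNA and one of the small RNA gene. With coding TSSs and these small RNA genes both set aside, 31 standing-alone members remained, with a median region width of 829 bp (516 to 1414). LINC00426, LINC00511 and MIR3142HG were among these. So was ENSG00000262202, which contains a small nucleolar RNA gene, because such genes and miRNA genes were not set aside.

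At the 55 members of any class with no coding TSS, the region reached to both sides of the start. The median was 509 bp downstream (281 to 564) and 545 bp upstream (346 to 670), with more downstream in 27 and more upstream in 28.

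Some members met the rule at more than 1 region. There were 24 members with at least 2 regions at their starts, 3 of them with 3 regions (ENSG00000248514, ENSG00000266824 and ENSG00000284607). LINC00240 had its other region at another of its starts, 22 bp from the midpoint, and shared it with GUSBP2, in sequence that is largely repeated elsewhere. LINC02739 and LINC01962 also had 2 regions, and each of those regions held at least 1 tRNA gene. ERRFI1-DT, GHET1, HCG11 and TAF12-DT had 2 regions each. For ERRFI1-DT, opposite a feedback inhibitor gene of the EGF receptor, regions of 1199 and 583 bp lay on the 2 sides of its start, at -868 and 532 bp. One region, on chromosome 18, served 3 members, LINC00526, LINC00667 and ENSG00000265091, and no region served more.

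By coding partner, 4 of 29 lncRNA genes antisense to or head to head with a gene of replication or repair were members (13.8%, 5.5 to 30.6). The counts were 2 of 17 for immediate early genes (11.8%, 3.29 to 34.3) and 2 of 13 for histone genes (15.4%, 4.33 to 42.2), beside 3.62% of all divergent and 1.19% of all antisense genes. These groups were short lists of gene symbols, chosen with earlier results of the list known. They leave out FANCL and CCN1, for instance, which also had members beside them. The shares depend on that choice, so they are a description and no enrichment can be read from them. SMC5-DT had its TSS 9 bp from the midpoint at SMC5, a gene of the SMC5/6 complex. POLG-DT was described above. CRTC3-AS1 started 205 bp from BLM, the RecQ helicase gene, and the region (1199 bp) reached 576 bp into BLM and 419 bp into the lncRNA. HLTF-AS1 overlaps HLTF, a gene of fork remodelling, without a head-to-head start, and its TSS lay inside the region (1208 bp), 160 bp from the midpoint. The immediate early genes EGR1 and KLF6 each had a divergent member, ENSG00000289267 and ENSG00000288755. The EGR1 region spanned 3948 bp and reached 1888 bp into EGR1 and 1260 bp into the lncRNA. At KLF6 the region of 932 bp missed the paired coding start. The histone genes H2BC5 and H4C8 lay at ENSG00000289117 (2659 bp) and ENSG00000289447 (534 bp).

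Members lay on every chromosome from 1 to 22 and on X. Chromosome 1 held 31 of its 1590 lncRNA genes (1.95%, 1.38 to 2.75), chromosome 14 held 12 of 651 (1.84%, 1.06 to 3.19) and chromosome 6 held 17 of 943 (1.80%, 1.13 to 2.87), beside 1.00% over all chromosomes. Of the 17 on chromosome 6, 11 lay between 26 and 29 Mb, the stretch that holds the main histone cluster and many tRNA genes. How many of all lncRNA genes lie in this stretch is not given here, so the 11 have no background. An HGNC symbol was carried by 81 members (43.1%), against 29.3% of all lncRNA genes, and 26.1% of members had 1 exon, against 16.5%. In the divergent class the order was the other way, at 21.3% of members and 35.4% of all divergent genes.

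Member promoters were richer in G and C than lncRNA promoters at large. At the TSS nearest to the region the median GC content was 62.7% (61.3 to 64.7). At the canonical TSS, used for comparison, it was 62.2% (60.3 to 64) in members and 49.0% in all lncRNA genes. Divergent members had 67.7% (63.3 to 71.0) against 65.3% for all divergent genes, and the intervals overlapped. Antisense members had 62.3% (60.0 to 65.0) against 51.3%. Standing-alone members had 59.2% (53.7 to 61.3) against 46.7%. The CpG observed/expected ratio followed the same order, at 0.737 (0.666 to 0.811) in standing-alone members and 0.243 (0.239 to 0.249) in all standing-alone genes. CpG-rich promoters made up 63.3% of members (119 of 188, 56.2 to 69.9) and 19.5% of all lncRNA genes. For coding genes the values were 82.0% of those with a region and 62.1% of all.

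GC skew, the excess of G over C on the non-template strand that is known to favour hybrids, was taken over the 500 bases downstream of the TSS. Its median was 0.0292 (0.00794 to 0.0472) in members and 0.0258 (0.0238 to 0.0281) in all lncRNA genes at the canonical TSS, and these intervals overlapped. For coding genes it was 0.0595 (0.0482 to 0.0749) with a region and 0.0526 (0.0508 to 0.0545) over all.

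**Figure D5:**
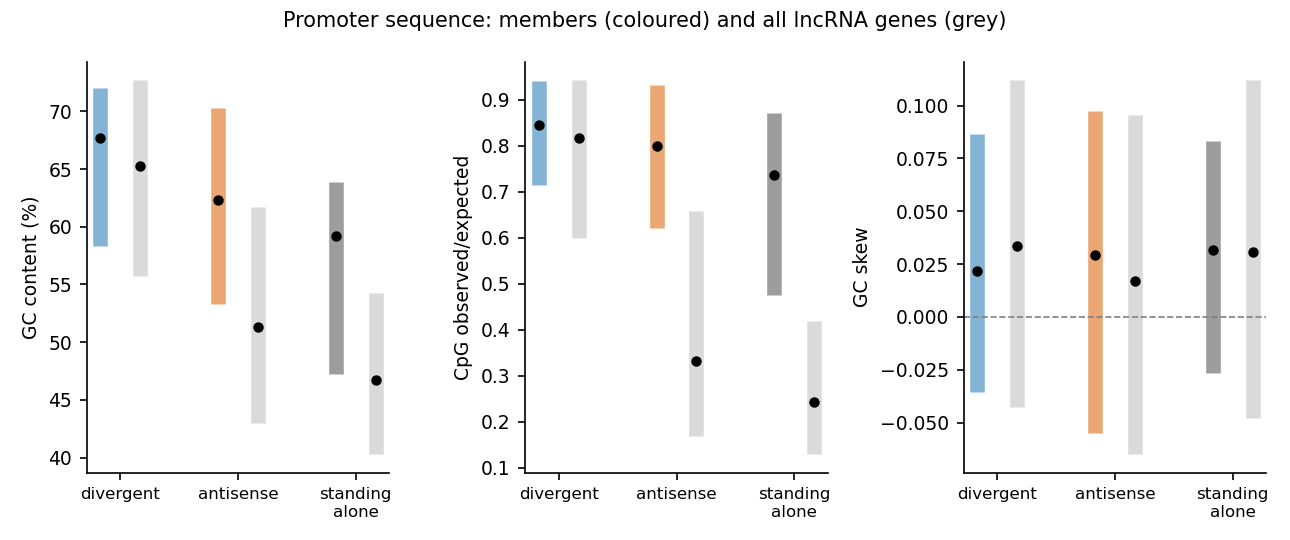
GC content, CpG observed/expected ratio and GC skew of promoters at the canonical TSS, for members (coloured) and all lncRNA genes of the class (light grey, right of each pair). Dots are medians and bars span the quartiles. GC content and CpG ratio of antisense and standing-alone members lie above their classes, while the skew overlaps.

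For the GC box and the ETS motif, the gap between members and other lncRNA genes narrowed once CpG-rich promoters alone were compared. The GC box letters occurred in 55.3% of member promoters (48.2 to 62.2) and in 22.7% of all lncRNA promoters, but in 77.3% and 74.6% when only CpG-rich promoters were counted. The ETS letters occurred in 11.7% (7.86 to 17.1) and 4.98%, and in 16.8% and 16.1% of CpG-rich promoters. TATAAA occurred in 8.51% of members (5.31 to 13.4) and in 15.8% of all, but in 3.36% (1.31 to 8.32) and 2.49% of CpG-rich promoters. The CCAAT letters, found between HSPA5-DT and HSPA5 above, occurred in 26 of 47 divergent members (55.3%, 41.2 to 68.6) and in 34.6% of all divergent genes (32.1 to 37.2). In antisense members they occurred in 27.7%, against 32.2% of the class, and in standing-alone members in 39.7%, against 37.4%. Over all classes they occurred in 38.3% of members (31.6 to 45.4) and 35.3% of lncRNA genes. In CpG-rich promoters the values were 37.8% (29.6 to 46.8) and 26.8% (25.4 to 28.3), a wider gap. The split by class is given here for the CCAAT letters only, and its differences were not tested. The E-box letters CACGTG occurred in 4.26% of members and 5.48% of all lncRNA promoters, and the AP-1 letters TGAGTCA in 3.72% and 5.78%. In CpG-rich promoters the AP-1 letters occurred in 2.52% of members (0.861 to 7.15) and 1.48% of all, and the E-box letters in 4.2% (1.81 to 9.46) and 9.16%. The CRE letters TGACGTCA occurred in 5 members (2.66%, 1.14 to 6.07) and in 0.848% of all, and in 4.2% and 2.65% of CpG-rich promoters. The NRF1 motif occurred in 2 members (1.06%) and in 0.56% of all, and in 1.68% and 2.57% of CpG-rich promoters.

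Some members need to be read with their sequence or neighbours in mind. At GUSBP2, ENSG00000262202 and ENSG00000290832, only 28.4%, 27.0% and 25.6% of the 31-base words of the region occur nowhere else in the assembly, so reads there could belong to copies. ENSG00000290057 was a member through the 4872 bp region at the start of NEAT1, and ENSG00000270117 through a 223 bp region at the MALAT1 locus, both genes that were left out.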

How the data were processed

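CUT&Tag libraries of shCtrl and shA3B OMM2.3 cells (1 each) were grouped by the sample titles. Per the labels and the study's methods, the authors trimmed reads (cutadapt 4.1), aligned them to GRCh38 (Bowtie2 2.2.5), removed duplicates (Picard 2.27.3), filtered alignments (SAMtools 1.15.1), called peaks (SEACR 1.3) and compared them with edgeR. The thresholds of that comparison are not given in the sources used here. With 1 library per group its spread could not come from replicates, which can change how many regions are listed. The deposited file holds positions only (other unit: base coordinates), 562 lines, 553 of them on chromosomes 1 to 22 and X. Its read depth is unknown.

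Starts were made 1-based. Antisense members overlap a coding gene on the other strand; divergent members do not and start head to head with a coding TSS within 3 kb; the rest stand alone. The members and lists were chosen with earlier results of these data known. Named genes were those on the lists, the 8 standing-alone members nearest a midpoint (HGNC symbols first), the 8 divergent and 5 antisense members with the widest regions and a symbol, those with at least 2 regions (1 of which is not reported here), and those at histone, immediate early or replication genes. LINC00461, TRIM7-AS2, the members with small nucleolar RNA genes, the members on chromosome 18, at the edge of the rule, at repeated sequence and beside NEAT1 and MALAT1 were named after their values were seen. Sequences came from GRCh38, and the miRNA and the 443 tRNA genes from RefSeq on the same build. Intervals at 95% (Wilson for shares, binomial ranks for medians) treat genes as independent. No p-value was computed. On simulated data, 100% of lncRNA genes at 200 planted regions were found again. The regions were planted inside the 3 kb window of the rule, so this checks the code and not the list. Alternatives were a 1 kb window, any base of the region, canonical TSSs, HGNC symbols only, head-to-head starts within 1 kb, windows of 1000 bases, and leaving out regions at tRNA genes. Those without any counted small RNA gene or repeated sequence were chosen after seeing the data. Python 3.11.15, pandas 2.3.3, scipy 1.17.1 and pysam 0.24.0 were used.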

Additional observations from a re-analysis of the deposited data

How the results depend on the processing

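The 8 main values were recomputed under up to 8 alternatives each, 60 values in all. A share or median counted as moved outside the 95% interval of its main value, and the member count and the ratio of shares beyond 1.5 times. By this, 54 values stayed, 6 moved and 0 reversed. With HGNC symbols only, the member count was 81, the standing-alone share 19.8%, the median distance 191 bp and the median GC content 65.3%. This alternative removes most members by construction. In the 1 kb window the median distance was 237 bp, which the narrower limit lowers by construction, and with GC content taken over 1000 bases the median was 58.8%. The ratio of the divergent to the standing-alone share ranged from 6.11 to 8.43. No paired analysis was possible because the list, which compares 1 library with 1, carries no value per sample. The list limits every value: it has no direction, score or depth, so the size and side of a difference cannot be given.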
